A study of Mus musculus with 20 samples.

Results

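The immunity-related GTPases examined were Irgm1, Irgm2, Igtp, Iigp1, Ifi47, Tgtp1, Tgtp2 and Gm12185, chosen by gene symbol as 8 of the 24421 genes counted in mouse bone marrow-derived macrophages. The macrophages were grown in DMEM with Glutamax, L929-conditioned medium, serum and antibiotics, and were then kept for 48 h with 1 of 4 formulations. The groups were LP 3M PIC (the dual formulation), LP 3M and LP PIC (the single ones) and LP, the lipoparticle, which every group shared and which served as the control. Each group held cells of the same 5 mice, which gave 20 libraries, and all cells were cultured cells of 1 type with no genetic change named in the labels. The comparisons ask what each formulation did to mRNA levels. They also ask whether the fold change of the 2 adjuvants together was the product of the fold changes of each alone. The amounts of adjuvant are not stated in the labels, so setting LP 3M PIC beside LP 3M or LP PIC rests on equal amounts, which was not tested.

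Immunity-related GTPases are large interferon-inducible proteins of mouse cells that load onto the membranes around intracellular parasites and bacteria and break them open. The regulators Irgm1, Irgm2 and Igtp (also called Irgm3) sit on the cell's own membranes and hold the other members inactive there. The effectors Iigp1 (Irga6), Ifi47 (Irgd) and Tgtp1 and Tgtp2 (both Irgb6) coat the vacuole of Toxoplasma gondii. Gm12185, a less studied locus, is a further gene of the same group by its RefSeq synonyms. Interferon-gamma induces these genes through GAS elements in their promoters, and type I interferon through ISRE elements.

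The libraries held between 9740528 and 23874805 counts in genes, so that 3 counts corresponded to 0.126 to 0.308 CPM (counts per 1000000 gene counts). Floors and intervals reflect the counting error of reads alone. The intervals pool the counts of each group and leave out the spread between mice. No molecular identifiers marked single molecules, so reads and not molecules were counted. All 8 listed macrophage markers were present in every group, led by Lyz2, Cd68 and Adgre1, with a summed level of 12130 to 16934 CPM in LP 3M PIC, 21415 to 26958 in LP 3M, 13679 to 19908 in LP PIC and 11350 to 18848 in LP. T cell markers summed to at most 4.32 CPM in any library, led by Lck and Cd4, with Cd3e, Cd3g, Cd8a and Cd8b1 at 0. Against LP, Lck rose by 1.36 in LP PIC and by 1.04 in LP 3M PIC (log2, adjusted p = 0.0013 and 0.0068, edgeR). Cd4 rose by 1.35 in LP PIC (log2, adjusted p = 0.035, edgeR) and not in LP 3M PIC, and neither gene passed in LP 3M. NK cell markers summed to at most 0.463 CPM, led by Klrb1c, with Ncr1, Prf1 and Klra8 at 0. B cell markers summed to at most 1.05 CPM, with Pax5 at 0.

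Of the 8 members, 7 lie on chromosome 11 in 2 clusters of GENCODE M21 (GRCm38), and Iigp1 lies on another chromosome. The first cluster, of 235 kb, holds Irgm1 (chr11:48861968-48871683), Gm12185 (chr11:48904656-48992226), Tgtp1 (chr11:48985327-48994172) and Tgtp2 (chr11:49057194-49064206), all on the minus strand, and Ifi47 (chr11:49076587-49096974) on the plus strand. The second, of 35.04 kb, holds Igtp (chr11:58199556-58207591) and Irgm2 (chr11:58199618-58222782), both on the plus strand. All are annotated as protein-coding genes. Of the 75-base windows of Tgtp1 exons 74.6% also occur in Tgtp2, and 81.4% of those of Tgtp2 occur in Tgtp1, so how the authors' counting split reads between these near-identical copies is uncertain. Igtp and Irgm2 share 162 exonic bases on the same strand, and Gm12185 and Tgtp1 share 223. Ifi47 shares 111 exonic bases with Olfr56 on its own strand and 106 with Gm12188 on the other strand, and the labels do not state the strand setting of the counting.

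The RefSeq promoter windows (GRCm38.p6), which run from 250 bases before to 50 after an RNA start, were searched for the 7 members on chromosome 11, and the window of the other member was not used here. The ISRE core was spelled GAAANNGAAA and the GAS-like motif TTCNNNGAA, both searched on either strand. An ISRE core occurred in 6 of the 7 windows and in 3.44% of all 32851 windows of the table. A GAS-like motif occurred in 5 of the 7 and in 8.30% of all windows. The 6 stretches with an ISRE core are printed because they show how alike the members are at this place, with the ISRE core and the GAS-like motif in capitals.
Irgm1 (chr11:48871429-48871469, minus strand): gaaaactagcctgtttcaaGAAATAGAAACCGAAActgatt
Irgm2 (chr11:58214894-58214934, plus strand): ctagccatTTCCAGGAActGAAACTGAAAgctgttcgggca
Igtp (chr11:58199503-58199543, plus strand): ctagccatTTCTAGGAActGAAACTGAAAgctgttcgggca
Tgtp2 (chr11:49064261-49064301, minus strand): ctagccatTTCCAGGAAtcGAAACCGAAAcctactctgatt
Tgtp1 (chr11:48992302-48992342, minus strand): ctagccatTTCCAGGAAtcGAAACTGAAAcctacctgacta
Gm12185 (chr11:48927236-48927276, minus strand): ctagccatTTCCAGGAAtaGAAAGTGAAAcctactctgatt
In Irgm2, Igtp, Tgtp2, Tgtp1 and Gm12185 the GAS-like motif stood 2 bases before the ISRE core. This joint pattern occurred in 5 of the 32851 windows (0.0152%), which were those of the same 5 genes; the pattern was spelled out after these sequences had been seen. The Irgm1 stretch held 2 overlapping ISRE cores and no GAS-like motif, and the Ifi47 window held neither motif. The 8 bases before the joint pattern, ctagccat, were the same in both clusters. A match of letters is a description and not a measured binding site.

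**Figure D1:**
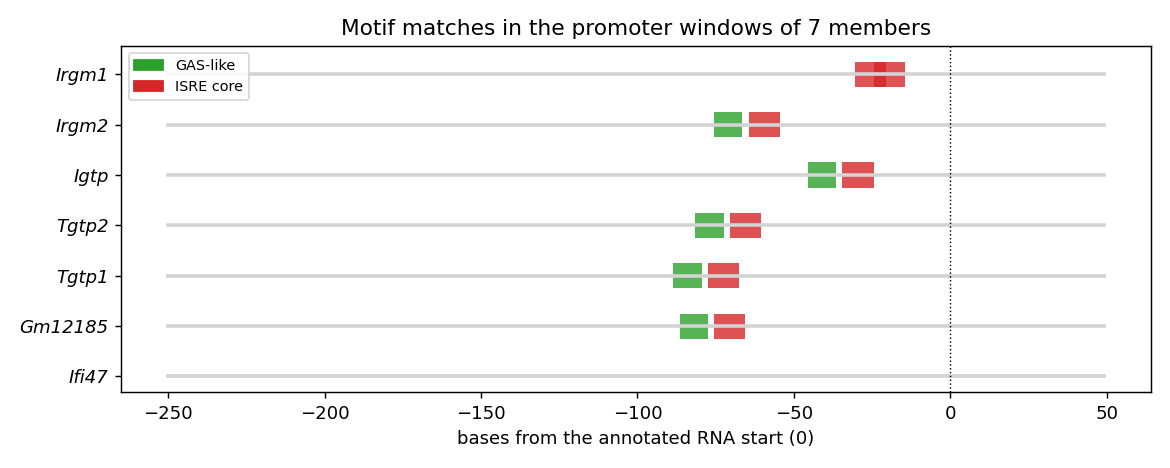
Position of GAS-like motifs (green) and ISRE cores (red) in the RefSeq promoter windows of 7 members, in bases from the annotated RNA start at 0; each grey line is 1 window. In 5 windows a green block stands just upstream of a red one, Irgm1 has 2 overlapping red blocks that begin 30 and 24 bases upstream, and Ifi47 has none.

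The closest pair of windows was Gm12185 and Tgtp2, with 285 identical bases over 305 aligned columns (93.4%), against 74.3% for Igtp and Irgm2 and 69.7% for Tgtp1 and Tgtp2. The 250 bases upstream of their RefSeq starts are printed to show how alike the closest pair is, and capitals again mark the GAS-like motif and the ISRE core.
Gm12185 (chr11:48927183-48927432, minus strand): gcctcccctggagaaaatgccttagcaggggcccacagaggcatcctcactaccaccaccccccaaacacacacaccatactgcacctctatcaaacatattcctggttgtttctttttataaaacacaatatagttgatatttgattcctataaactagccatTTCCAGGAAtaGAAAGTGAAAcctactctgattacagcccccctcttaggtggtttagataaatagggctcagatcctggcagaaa
Tgtp2 (chr11:49064213-49064462, minus strand): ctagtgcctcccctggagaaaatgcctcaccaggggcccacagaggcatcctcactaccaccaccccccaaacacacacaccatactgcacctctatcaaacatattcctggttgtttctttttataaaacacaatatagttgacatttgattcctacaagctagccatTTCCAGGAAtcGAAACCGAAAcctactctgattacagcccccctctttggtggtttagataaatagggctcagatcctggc
The GENCODE model of Gm12185 runs further upstream than this RefSeq start, into the Tgtp1 locus.

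Per kilobase of exon, the members fell into an abundant and a sparse set in LP macrophages. Irgm1 had the highest level there at 22.02 ± 8.08 CPM per kb (mean and SD, n = 5 mice), followed by Igtp at 12.3 ± 4.05, Ifi47 at 11.4 ± 4.14 and Irgm2 at 11.1 ± 4.35. Igtp exceeded Ifi47 in 3 of 5 mice and Ifi47 exceeded Irgm2 in 3 of 5, while Igtp exceeded Irgm2 in 5 of 5. Tgtp2 stood at 2.10 ± 1.10 CPM per kb, Gm12185 at 0.214 ± 0.0884, Iigp1 at 0.198 ± 0.118 and Tgtp1 at 0.0135 ± 0.0136. The 3 regulators and the effector Ifi47 were thus the abundant members before any adjuvant. Iigp1 had 4 to 48 counts per LP library and Gm12185 had 14 to 37, above the floor of 3 counts, while Tgtp1 had 0 to 2. In LP PIC the order per kilobase was Irgm1 (58.4), Ifi47 (48.7), Igtp (45.0), Irgm2 (31.8), Tgtp2 (15.3), Iigp1 (5.74), Tgtp1 (1.53) and Gm12185 (0.760), each in CPM per kb. In LP 3M PIC Igtp led with 53.0 ± 9.03 CPM per kb, above Irgm1 at 45.2 ± 8.36 in 4 of 5 mice.

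**Figure D2:**
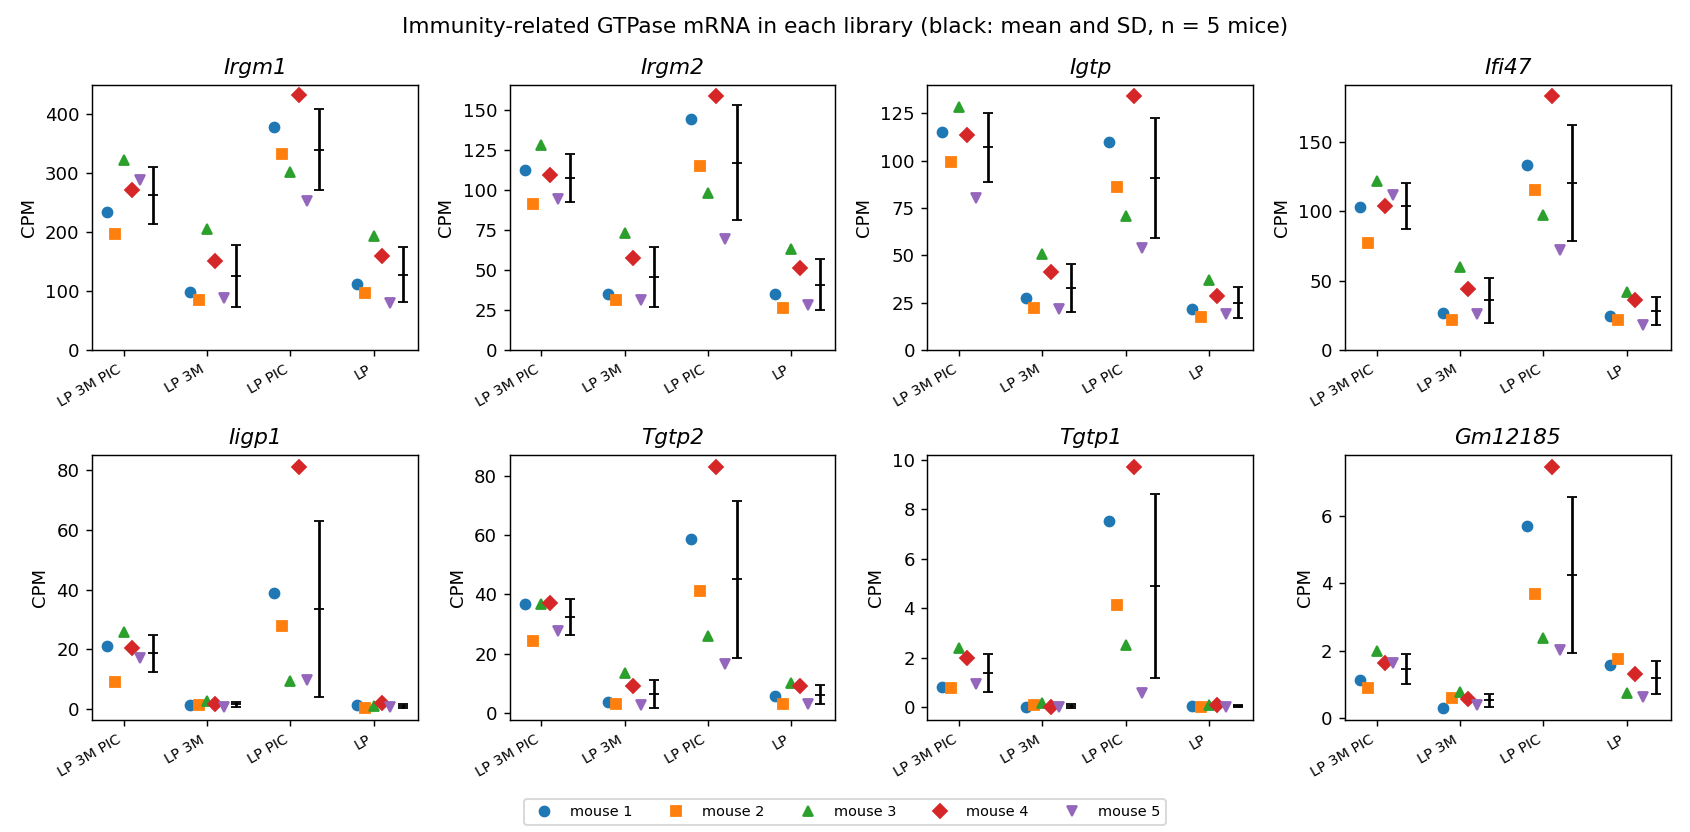
CPM of each member in each library, 1 panel per gene with its own axis, groups from left to right LP 3M PIC, LP 3M, LP PIC and LP; symbols are mice 1 to 5 and black bars the mean and SD of 5 mice. For Igtp the LP 3M PIC libraries run from 80.1 to 128 CPM and the LP PIC libraries from 54.1 to 134, all above the LP libraries at 17.2 to 37.2, while LP 3M at 21.5 to 50.5 overlaps LP.

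LP PIC raised all 8 members. The rises ran from 1.44 in Irgm1 to 6.53 in Tgtp1 on the log2 scale, with the next largest in Iigp1. The regulator Igtp (1.90 ± 0.29), Gm12185 (1.91 ± 0.37) and the effector Ifi47 (2.12 ± 0.31) lay close together. Of all tested genes 22.7% rose in LP PIC against LP (45.5% changed in either direction), and the median log2 fold change was 2.02 over the members against -0.00036 over all tested genes. All LP PIC libraries lay above all LP libraries for 8 of 8 members and for 14.7% of all tested genes. Tgtp1 had at most 4 counts in any library without PIC. It therefore passed the filter on low counts (minimum count 10) only through the groups with PIC. Its rise and lack of overlap were thus largely set by this filter, in each comparison of a group with PIC against one without. In these bulk samples a change in RNA per cell and a change in the number of cells that express a gene cannot be told apart.

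Irgm1, the regulator with links to autophagy, had 378, 333, 302, 432 and 253 CPM in LP PIC of mice 1 to 5, against 113, 95.9, 193, 159 and 79.4 CPM in LP of the same mice. Mouse 3 was the highest in LP but not in LP PIC, and its rise was the smallest. The change was 1.44 ± 0.27 (log2 fold change and SE, adjusted p = 0.00028, edgeR). Irgm2, a regulator found at the Golgi, lay between 69.3 and 159 CPM in LP PIC with a median of 115, and between 26.2 and 63.3 in LP with a median of 35.1. It rose by 1.55 ± 0.29 (log2, adjusted p = 0.0003, edgeR).

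Igtp, the regulator of endoplasmic reticulum and lipid droplet membranes, had 109.8, 86.0, 70.7, 134 and 54.1 CPM in LP PIC, against 21.8, 17.2, 37.2, 28.7 and 19.0 CPM in LP. Its rise was 1.90 ± 0.29 (log2, adjusted p = 3.6e-05, edgeR). Ifi47, an effector, had 133, 116, 97.6, 183 and 72.4 CPM in LP PIC, against 24.2, 21.4, 42.1, 35.8 and 17.9 CPM in LP. It rose by 2.12 ± 0.31 (log2, adjusted p = 2.1e-05, edgeR), and the lowest LP PIC library of each of these genes stood above the highest LP library.

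Iigp1, an effector that coats the Toxoplasma vacuole, had 39.0, 27.8, 9.50, 80.9 and 9.85 CPM in LP PIC, against 1.51, 0.411, 1.18, 2.09 and 0.581 CPM in LP. The LP PIC libraries spanned almost an order of magnitude and still lay wholly above LP. The change was 4.82 ± 0.60 (log2, adjusted p = 4e-06, edgeR). Tgtp2 had 58.8, 41.1, 26.1, 82.9 and 16.5 CPM in LP PIC, against 5.59, 3.08, 9.98, 9.01 and 3.13 CPM in LP, a rise of 2.88 ± 0.50 (log2, adjusted p = 0.00013, edgeR).

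Tgtp1, its near-identical neighbour, was counted 178, 96, 57, 220 and 10 times in LP PIC, against 1, 0, 2, 2 and 0 times in LP. Every LP library was below the floor of 3 counts, and Tgtp1 entered the tests only through the groups with PIC. Pooled over the groups, the 561 counts in LP PIC and 5 in LP gave a ratio of 104 per total count (95% exact counting interval 44.4 to 322), and the fitted change of 6.53 ± 0.85 (log2, adjusted p = 5.5e-06, edgeR) depends on the prior count. Gm12185 had 5.71, 3.67, 2.37, 7.45 and 2.02 CPM in LP PIC, against 1.56, 1.75, 0.741, 1.31 and 0.626 CPM in LP. It rose by 1.91 ± 0.37 (log2, adjusted p = 0.00031, edgeR).

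**Figure D3:**
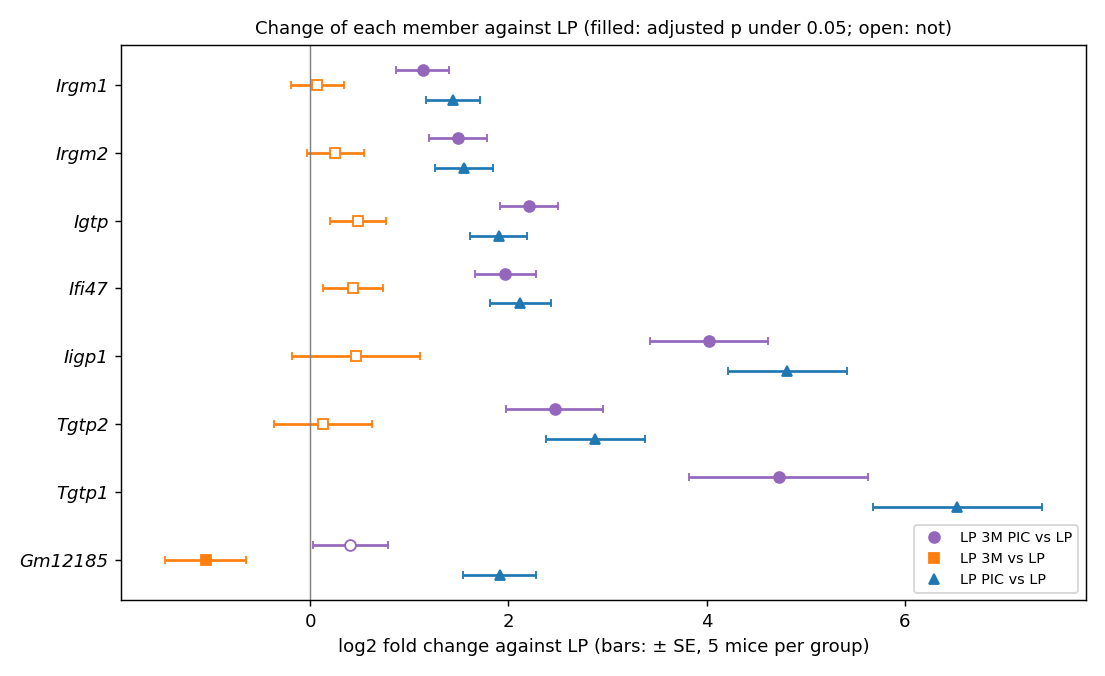
Log2 fold change of each member against LP with its SE (5 mice per group); circles are LP 3M PIC, squares LP 3M and triangles LP PIC, filled where the adjusted p was under 0.05. The squares lie near 0 except for Gm12185 at -1.05, the circles and triangles of the other members lie between 1.13 and 6.53, and the LP 3M value of Tgtp1 is left out because both groups averaged under 3 counts per library.

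LP 3M did not raise any member past the threshold. Of the 8, Gm12185 fell and the other 7 did not pass (edgeR; 0 members were higher at an unadjusted p under 0.05, and DESeq2 also called 0 higher and Gm12185 lower). Of all tested genes 39.5% changed in LP 3M against LP, 20.0% rising and 19.5% falling, and the members' median log2 fold change was 0.23 against -0.01 over all tested genes.

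Gm12185 had 0.293, 0.590, 0.772, 0.548 and 0.392 CPM in LP 3M of mice 1 to 5, against 1.56, 1.75, 0.741, 1.31 and 0.626 CPM in LP. It was lower in 4 of 5 mice, and mouse 3 had slightly more in LP 3M. The 58 counts in LP 3M and 115 in LP over 5 libraries each make this the member with the fewest counts after Tgtp1. The change was -1.05 ± 0.41 (log2, adjusted p = 0.048, edgeR), and the adjusted p was 0.053 with mouse as a block. Without mouse 1, 2 or 4 the adjusted p was 0.23, 0.13 or 0.098, without the LP library of mouse 2 it was 0.098, and without the LP 3M library of mouse 5 it was 0.089.

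Igtp had 27.5, 22.3, 50.5, 41.1 and 21.5 CPM in LP 3M and Ifi47 had 26.7, 21.8, 60.2, 44.0 and 26.2 CPM, and both were higher than in LP in 5 of 5 mice. Within mice the differences of log2 CPM ran from 0.27 to 0.62 for Igtp and from 0.17 to 0.64 for Ifi47. Neither passed the threshold, with log2 fold changes of 0.48 ± 0.29 (adjusted p = 0.19) and 0.43 ± 0.30 (adjusted p = 0.27) in the edgeR fit over all 20 libraries. Irgm1 had 98.6, 84.4, 205, 151 and 88.2 CPM in LP 3M, close to its own LP values mouse by mouse, with a fitted log2 change of 0.07 ± 0.27 that turned to -0.03 with plain library totals, a scaling that shifts the median of all genes to -0.12. Irgm2 (0.25 ± 0.29), Iigp1 (0.46 ± 0.65) and Tgtp2 (0.13 ± 0.49) also had log2 changes within 1 SE of 0, in the fit without pairing by mouse. Within mice, the differences of log2 CPM for Irgm2 were all above 0, from 0.15 to 0.40, with plain CPM higher in 4 of 5 mice. They ran from -0.09 to 1.51 for Iigp1 and from -0.47 to 0.47 for Tgtp2. Tgtp1 was counted 6 times over the 5 LP 3M libraries and 5 times over the LP libraries.

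The dual formulation LP 3M PIC raised 7 of the 8 members against LP, with Gm12185 as the exception. Of all tested genes 31.7% rose and 30.6% fell in this comparison, 62.2% in either direction, and the median log2 fold change was 2.09 over the members and 0.02 over all tested genes. The rises were 1.13 ± 0.27 for Irgm1, 1.49 ± 0.29 for Irgm2, 2.21 ± 0.29 for Igtp, 1.97 ± 0.31 for Ifi47, 4.03 ± 0.60 for Iigp1 and 2.47 ± 0.49 for Tgtp2 (log2 fold change and SE, adjusted p from 3.1e-06 to 0.0013, edgeR). All LP 3M PIC libraries lay above all LP libraries for these 6 genes and Tgtp1, and for 17.7% of all tested genes. For Tgtp1 this was largely set by the filter on low counts.

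In LP 3M PIC of mice 1 to 5, Irgm1 had 234, 197, 322, 271 and 288 CPM. Igtp had 115, 99.4, 128, 113 and 80.1 CPM and Ifi47 had 103, 77.3, 122, 104 and 112 CPM. The coefficient of variation between mice was lower in LP 3M PIC than in LP PIC for 8 of 8 members, a difference that was not tested. How many of all tested genes show the same was not counted, and the members share their libraries. It was 18.5% in LP 3M PIC and 20.3% in LP PIC for Irgm1, 17.0% and 34.8% for Igtp, and 18.8% and 58.9% for Tgtp2. Iigp1 had 20.98, 9.11, 25.8, 20.5 and 17.0 CPM in LP 3M PIC, with mouse 2 well under the other mice. Tgtp2 had 36.8, 24.2, 36.7, 37.1 and 27.6 CPM. Tgtp1 was counted 18, 18, 30, 38 and 22 times, which over the group is 25.7 times the LP level per total count (95% exact counting interval 10.7 to 80.4).

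Gm12185 had 1.11, 0.898, 1.99, 1.62 and 1.62 CPM in LP 3M PIC, which overlapped the LP libraries at 0.626 to 1.75 CPM. It was higher than LP in 3 of 5 mice, and the log2 change was 0.41 ± 0.38 (adjusted p = 0.37, edgeR).

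Adding PIC to the 3M formulation raised all 8 members. Of all tested genes 41.5% changed in LP 3M PIC against LP 3M, where 20.5% rose, and the members' median log2 fold change was 1.63 against 0.01 over all tested genes. Iigp1 was at 18.7 ± 6.18 CPM in LP 3M PIC and 1.57 ± 0.751 CPM in LP 3M (mean and SD, n = 5), a change of 3.56 ± 0.57 (log2, adjusted p = 9.4e-05, edgeR). Tgtp2 averaged 32.5 ± 6.10 CPM in LP 3M PIC and 6.43 ± 4.75 CPM in LP 3M, a change of 2.34 ± 0.49 (adjusted p = 0.00095, edgeR). Gm12185, too, rose here, by 1.46 ± 0.40 (log2, adjusted p = 0.0071, edgeR), and its groups did not overlap. Irgm1 rose by 1.06 ± 0.27 (adjusted p = 0.0041, edgeR) and its groups overlapped, since the LP 3M library of mouse 3, at 205 CPM, lay above the LP 3M PIC library of mouse 2, at 197 CPM. The other 7 members did not overlap, and all LP 3M PIC libraries lay above all LP 3M libraries for 12.2% of all tested genes. The rise and lack of overlap of Tgtp1 were again largely set by the filter on low counts.

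With 3M added to the PIC formulation, Gm12185 and Tgtp1 were lower and the other 6 members did not pass the threshold. The call of Tgtp1 was lost without mouse 1, 2 or 4. Of all tested genes 44.5% changed in LP 3M PIC against LP PIC, where 21.4% fell and 23.1% rose, and the members' median log2 fold change was -0.36 against 0.00 over all tested genes. No member was higher (edgeR and DESeq2 each called 0, and 0 were higher at an unadjusted p under 0.05). Gm12185 averaged 1.45 ± 0.439 CPM in LP 3M PIC and 4.24 ± 2.31 CPM in LP PIC. The libraries ran from 0.898 to 1.99 CPM in LP 3M PIC and from 2.02 to 7.45 CPM in LP PIC, and every mouse had less in LP 3M PIC. How many of all tested genes separate in this direction was not counted. The change was -1.51 ± 0.36 (log2, adjusted p = 0.0024, edgeR).

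Tgtp1 averaged 1.38 ± 0.751 CPM in LP 3M PIC and 4.89 ± 3.71 CPM in LP PIC. By plain CPM it was lower in 4 of 5 mice, with mouse 5 the other way. In mouse 3 Tgtp1 was nearly equal, at 2.39 and 2.50 CPM, and its difference of log2 CPM with TMM factors was 0.005. Its log2 change was -1.80 ± 0.57 (adjusted p = 0.015, edgeR), but the adjusted p was 0.1 without mouse 1, 0.057 without mouse 2 and 0.072 without mouse 4. Tgtp2 changed by -0.41 ± 0.45 (adjusted p = 0.48, edgeR), so that Tgtp1 made up 3.96 ± 1.60% of the summed Tgtp1 and Tgtp2 counts in LP 3M PIC and 8.62 ± 3.11% in LP PIC (SD, n = 5), a share that also depends on how reads were split between the copies. Iigp1 changed by -0.79 ± 0.48 (adjusted p = 0.19) and Igtp by 0.30 ± 0.28 (adjusted p = 0.39), both in the edgeR fit. Igtp was higher in LP 3M PIC than in LP PIC in 4 of 5 mice.

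The interaction asks whether PIC changed a gene by a different factor on 3M particles than on plain ones, as the log2 fold change of LP 3M PIC over LP 3M minus that of LP PIC over LP. The estimate was below 0 for all 8 members, from -0.18 ± 0.40 for Igtp to -1.25 ± 0.81 for Iigp1 and -2.01 ± 1.64 for Tgtp1. None passed the threshold (edgeR; 0 at an unadjusted p under 0.05, lowest p 0.137, and 0 called by DESeq2), while 8.43% of all tested genes did, 3.82% above and 4.62% below 0. The members share their libraries, so their common sign is not 8 separate observations.

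LP 3M set against LP PIC was lower in all 8 members, where 22.7% of all tested genes fell and 47.1% changed (median log2 fold change of the members -2.22, of all tested genes -0.01). The differences were smallest in the regulators, from -1.30 ± 0.29 in Irgm2 to -1.42 ± 0.28 in Igtp, with the effector Ifi47 near them at -1.69 ± 0.30. They were largest in Gm12185 at -2.97 ± 0.39, Iigp1 at -4.35 ± 0.58 and Tgtp1 at -6.32 ± 0.83 (log2, adjusted p of the members from 7.4e-06 to 0.0014, edgeR). All LP 3M libraries lay below all LP PIC libraries for 7 members, all but Irgm2, and for 18.1% of all tested genes. The difference in Tgtp1 was here, too, largely set by the filter on low counts.

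Counted together, the 8 members made up 635 ± 96.0 CPM in LP 3M PIC, 248 ± 105 CPM in LP 3M, 756 ± 238 CPM in LP PIC and 230 ± 84.5 CPM in LP (mean and SD, n = 5). Irgm1 supplied 41.2 ± 3.32% of these counts in LP 3M PIC, 50.8 ± 0.801% in LP 3M, 46.2 ± 5.23% in LP PIC and 55.5 ± 1.56% in LP. Igtp supplied 17.0 ± 2.62% in LP 3M PIC, 13.2 ± 0.752% in LP 3M, 11.9 ± 0.490% in LP PIC and 10.9 ± 1.09% in LP. The share of Igtp was thus highest in the dual formulation. Iigp1 supplied 2.87 ± 0.641% in LP 3M PIC, 0.628 ± 0.122% in LP 3M, 3.86 ± 2.32% in LP PIC and 0.491 ± 0.232% in LP.

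The mice differed in a way that most members shared. In LP 3M the cells of mouse 3 had the highest level of 8 of 8 members, and mice 3 and 4 were the top pair for 6 of 8 in LP 3M and for 6 of 8 in LP. Tgtp1, 1 of the 8, was ranked there on 6 counts over the LP 3M libraries and 5 over the LP libraries. In LP PIC the order was another: mouse 4 was highest for 8 of 8 and mouse 5 lowest for 7 of 8. In LP 3M PIC mouse 3 was again highest for 7 of 8 and mouse 2 lowest for 7 of 8. How many of all tested genes follow these orders was not counted. Within LP PIC, Iigp1 ran from 9.50 CPM in mouse 3 to 80.9 CPM in mouse 4, and Tgtp1 from 0.576 CPM in mouse 5 to 9.70 CPM in mouse 4.

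**Figure D4:**
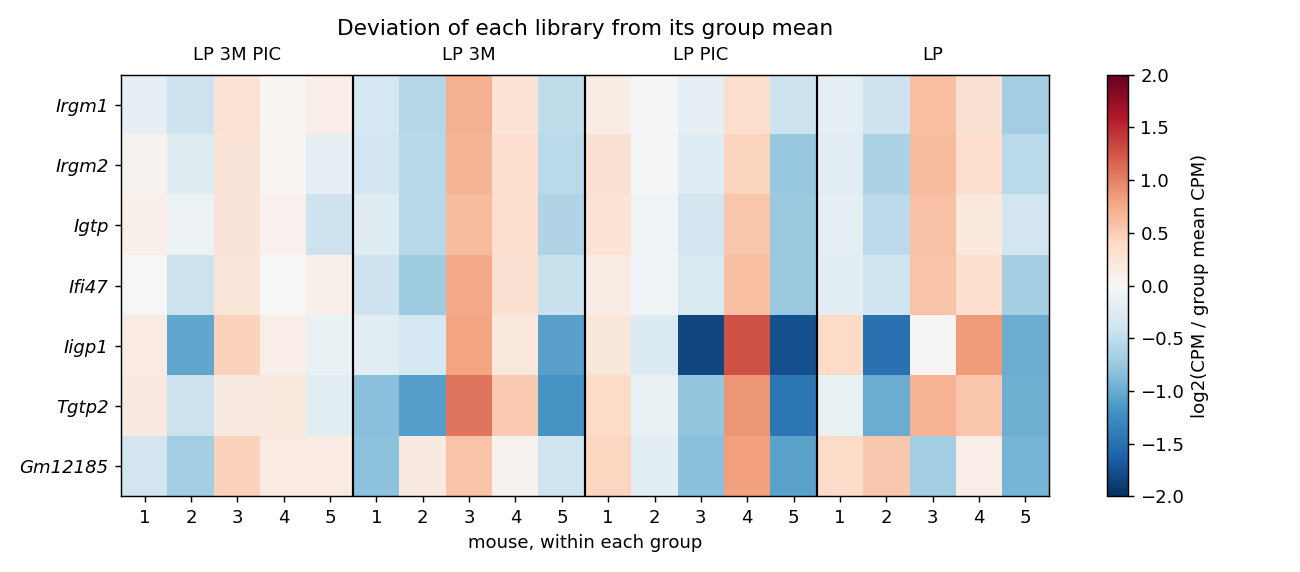
Deviation of each library from its group mean, as log2 of CPM over the mean CPM, for 7 members (rows) and mice 1 to 5 within each group (columns); Tgtp1 is left out because some libraries held no count. Mouse 3 is red in every row of LP 3M and mouse 4 in every row of LP PIC, where mouse 5 is blue throughout, and Iigp1 and Tgtp2 show the deepest colours.

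Over the 20 libraries the log2 CPM of each member correlated with the mean of the other 7 at Pearson's r of 0.94 to 0.99, except for Gm12185 at 0.75. After the group means were removed, r ran from 0.64 for Gm12185 to 0.94 for Tgtp2. These values are a description, since the libraries share mice, conditions and depth. The 8 other genes whose pattern over the 20 libraries was most like the members' mean were Nmi (r = 0.991), Cmpk2 (0.989), Rnf31 (0.987), Apol9b (0.986), Phf11a (0.985), Gbp4 (0.984), Ube2l6 (0.984) and Pyhin1 (0.983).

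Among 9 related loci outside the 8 members, 7 were tested. Of these, 4 rose and 1 fell in LP 3M PIC, none rose and 1 fell in LP 3M, and 4 rose in LP PIC, each against LP. The share called in either direction over all tested genes was 62.2% in LP 3M PIC, 39.5% in LP 3M and 45.5% in LP PIC. Gm12250, the locus of the effector Irgb10, had 50.3, 35.01, 70.0, 56.5 and 56.1 CPM in LP 3M PIC, 64.6, 50.5, 47.2, 82.8 and 34.7 CPM in LP PIC and 8.999, 6.78, 20.7, 15.1 and 6.75 CPM in LP. It rose by 2.27 ± 0.39 in LP 3M PIC and by 2.28 ± 0.39 in LP PIC (log2, adjusted p = 5.1e-05 and 0.0001, edgeR). Gm4951 rose by 2.77 ± 0.48 in LP 3M PIC and by 2.94 ± 0.48 in LP PIC, and F830016B08Rik by 1.96 ± 0.43 and 2.51 ± 0.43 (log2, each adjusted p under 0.05, edgeR).

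9930111J21Rik1 lies inside the GENCODE span of Gm12185 without sharing exons, and it was lower with 3M and unraised by PIC. It had 6.82, 4.02, 12.0, 7.69 and 8.59 CPM in LP 3M PIC, 3.69, 4.04, 13.7, 9.50 and 10.2 CPM in LP 3M, 21.1, 18.1, 14.9, 22.4 and 14.1 CPM in LP PIC and 18.8, 18.5, 19.7, 21.3 and 15.7 CPM in LP. The highest library with 3M was LP 3M of mouse 3, at 13.7 CPM, and the lowest without it was LP PIC of mouse 5, at 14.1 CPM. How many of all tested genes separate in this way was not counted. It fell by 1.18 ± 0.30 in LP 3M PIC (log2, adjusted p = 0.0025, edgeR) and by 1.09 ± 0.30 in LP 3M (adjusted p = 0.0075, edgeR), and changed by -0.01 ± 0.29 in LP PIC (adjusted p = 0.98, edgeR). Gm5431, the neighbour on the other side of Gm12185 and named after its values were seen, changed by 0.98 ± 0.39 in LP 3M PIC (adjusted p = 0.035, edgeR), by -0.68 ± 0.39 in LP 3M (adjusted p = 0.18, edgeR) and by 1.66 ± 0.39 in LP PIC (adjusted p = 0.0019, edgeR). Of the 75-base windows of Gm12185 exons 6.95% also occur in Gm5431 and 2.73% in Tgtp1. Gm5431 averaged 61.1 CPM in LP PIC, against 4.24 CPM for Gm12185, and how reads were split between them was not tested.

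The guanylate-binding proteins, GTPases that gather at the same vacuoles as the effectors, rose in LP 3M in 5 cases, where no immunity-related GTPase did. Of 9 tested genes of this list 8 rose in LP 3M PIC (median log2 fold change 4.32), 5 rose and 1 fell in LP 3M (median 1.05) and 9 rose in LP PIC (median 4.48), each against LP, where 31.7%, 20.0% and 22.7% of all tested genes rose in that order. In LP 3M, Gbp2 rose by 2.16 ± 0.39, Gbp5 by 2.25 ± 0.56 and Gbp6 by 2.10 ± 0.35 (log2, adjusted p = 0.00027, 0.0041 and 0.00014, edgeR). Gbp2 averaged 649 ± 192 CPM in LP 3M PIC, 109 ± 56.0 CPM in LP 3M, 570.4 ± 229 CPM in LP PIC and 26.0 ± 11.9 CPM in LP. The difference between the 2 lists was not tested. Gbp8, like Gm12185, fell in LP 3M and rose in LP PIC: it changed by -0.82 ± 0.46 in LP 3M PIC (adjusted p = 0.13), fell by 2.18 ± 0.50 in LP 3M (adjusted p = 0.0021) and rose by 1.54 ± 0.43 in LP PIC (adjusted p = 0.0071), in the edgeR fit, and in LP PIC the adjusted p was 0.064 without mouse 4.

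**Figure D5:**
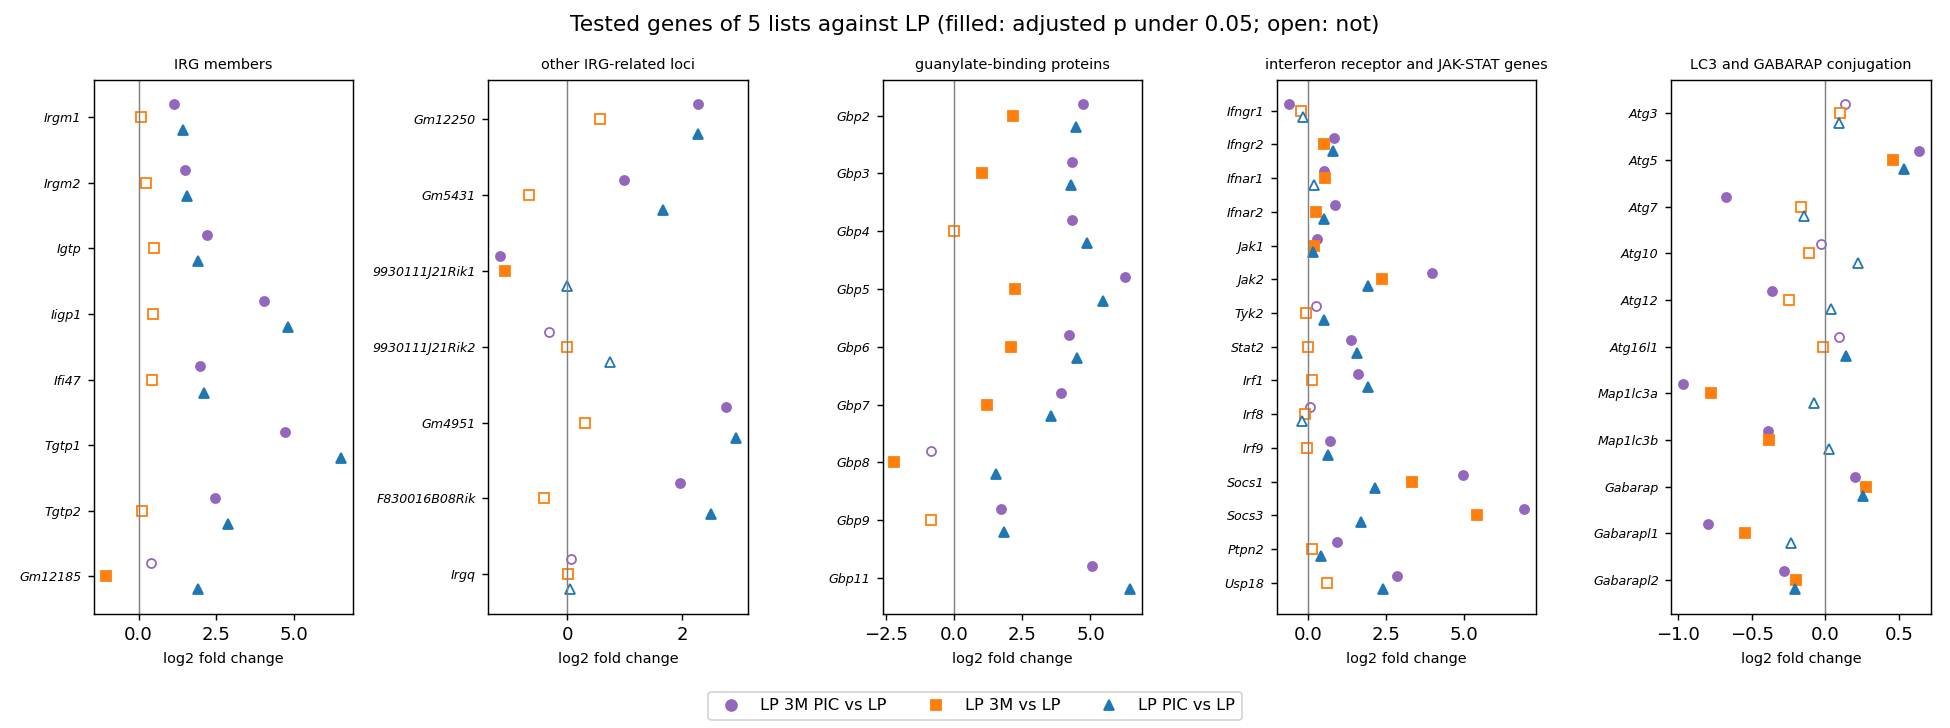
Log2 fold change against LP for the tested genes of 5 lists, 1 panel per list with its own axis; circles are LP 3M PIC, squares LP 3M and triangles LP PIC, filled where the adjusted p was under 0.05. Squares of the immunity-related GTPases stay near 0 apart from Gm12185 at -1.05, while 5 guanylate-binding proteins have filled squares to the right of 0, and the LP 3M values of Tgtp1 and Gbp11 are left out because both groups averaged under 3 counts per library.

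Of the 15 interferon receptor and JAK-STAT genes described, 12 rose and 1 fell in LP 3M PIC, 7 rose in LP 3M and 12 rose in LP PIC, with median log2 fold changes of 0.85, 0.21 and 0.63. Over all tested genes 31.7%, 20.0% and 22.7% rose in the same order. Jak2, a kinase of the interferon-gamma receptor, rose by 3.95 ± 0.29 in LP 3M PIC, 2.37 ± 0.28 in LP 3M and 1.93 ± 0.27 in LP PIC (log2, adjusted p = 2.6e-09, 3.1e-06 and 1.5e-05, edgeR). Socs3, a feedback inhibitor of cytokine receptors, rose by 6.92 ± 0.52, 5.40 ± 0.49 and 1.69 ± 0.44 (each adjusted p under 0.05, edgeR), and Socs1, which inhibits JAK kinases, by 4.96 ± 0.55, 3.33 ± 0.53 and 2.15 ± 0.53 in the same order. The receptor chain Ifngr2 rose by 0.85 ± 0.07, 0.52 ± 0.07 and 0.82 ± 0.07 (log2, each adjusted p under 0.05, edgeR). Its partner Ifngr1 fell by 0.61 ± 0.09 in LP 3M PIC (log2, adjusted p = 1.1e-05, edgeR), and changed by -0.23 ± 0.09 in LP 3M (adjusted p = 0.056) and -0.15 ± 0.09 in LP PIC (adjusted p = 0.19). Ifnar1, of the type I interferon receptor, rose by 0.50 ± 0.10 in LP 3M PIC and 0.55 ± 0.10 in LP 3M (log2, adjusted p = 0.00018 and 0.0002, edgeR) and changed by 0.19 ± 0.10 in LP PIC (adjusted p = 0.12). Stat2 and Irf1, named after their values were seen, passed the threshold in LP 3M PIC and LP PIC and not in LP 3M.

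Interferon-gamma RNA was almost absent: Ifng was counted 0 times in LP 3M PIC, 1 time in LP 3M, and 0 times in LP PIC and LP, over 5 libraries each. Ifnb1, which encodes interferon-beta, was counted 283 times over the LP 3M PIC libraries, 0 times in LP 3M, 125 times in LP PIC and 1 time in LP, and was present in 5 of 5 libraries of LP 3M PIC and of LP PIC. Ifna4 was counted 9 times in LP 3M PIC, 0 times in LP 3M, 1 time in LP PIC and 0 times in LP. Of the other ligands listed, Ifna1 and Ifna2 had at most 2 counts in a group, and Ifna5, Ifna6, Ifnl2 and Ifnl3 had none. In LP 3M PIC, Ifnb1 was highest in mouse 2, at 6.33 CPM, where 7 of 8 members were lowest. In LP PIC, Ifnb1 had 1.18, 1.64, 0.788, 1.63 and 0.230 CPM in mice 1 to 5. Mouse 5 was lowest, as for 7 of 8 members, and mice 2 and 4 were highest. These levels rest on few counts, and the relation of Ifnb1 to the members between mice was not tested.

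The conjugation machinery of LC3 and GABARAP proteins, which directs immunity-related GTPases to vacuoles, changed by less than 1 log2 unit in each gene tested. Of its 11 genes, 2 rose and 6 fell in LP 3M PIC, 2 rose and 4 fell in LP 3M, and 3 rose and 1 fell in LP PIC, with median log2 fold changes of -0.28, -0.16 and 0.04. The share called in either direction over all tested genes was 62.2%, 39.5% and 45.5% in the same order. Atg5, a part of the conjugating enzyme, rose by 0.64 ± 0.07 in LP 3M PIC, 0.46 ± 0.07 in LP 3M and 0.54 ± 0.07 in LP PIC (log2, adjusted p = 5.4e-07, 8e-05 and 1e-05, edgeR). Map1lc3a fell by 0.97 ± 0.13 in LP 3M PIC and by 0.78 ± 0.12 in LP 3M (log2, adjusted p = 1.8e-06 and 7.2e-05, edgeR), and changed by -0.08 ± 0.12 in LP PIC (adjusted p = 0.63). Gabarapl1 fell by 0.80 ± 0.12 in LP 3M PIC and 0.55 ± 0.12 in LP 3M (log2, adjusted p = 1.1e-05 and 0.0013, edgeR), with -0.24 ± 0.12 in LP PIC (adjusted p = 0.11). Gabarapl2, a GABARAP protein of the Golgi, fell by 0.28 ± 0.07 in LP 3M PIC, 0.20 ± 0.07 in LP 3M and 0.21 ± 0.07 in LP PIC (log2, adjusted p = 0.002, 0.035 and 0.025, edgeR). Gabarap rose by 0.20 ± 0.08, 0.27 ± 0.08 and 0.26 ± 0.08 in the same order (log2, adjusted p = 0.027, 0.0077 and 0.0095, edgeR). Some of these calls were lost in alternative edgeR fits. There the adjusted p of Gabarap reached 0.265 in LP 3M PIC and 0.068 in LP 3M, and stayed under 0.05 in LP PIC. That of Gabarapl2 reached 0.12 in LP 3M and 0.15 in LP PIC, and stayed under 0.05 in LP 3M PIC.

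The summed markers of neutrophils and dendritic cells had higher ranges in the groups with an adjuvant than in LP, mostly through S100a8, Mmp8 and Ccr7. Under 1 CPM in every library were 6 of the 9 neutrophil markers counted and 5 of the 6 dendritic cell markers. S100a8 had 536 CPM in LP 3M PIC of mouse 2 and 3.35 to 99.5 CPM in the other mice of that group. Of 10 neutrophil markers 9 were in the tables, Retnlg was at 0, and the sum ran from 26.3 to 639 CPM in LP 3M PIC, 29.3 to 138 in LP 3M, 11.2 to 25.2 in LP PIC and 7.36 to 12.1 in LP, nearly all of it S100a8 and Mmp8. The 6 dendritic cell markers summed to 6.24 to 46.2 CPM in LP 3M PIC, 0.305 to 0.796 in LP 3M, 1.27 to 7.06 in LP PIC and at most 0.223 in LP, nearly all of it Ccr7. The 5 fibroblast markers summed to 26.5 to 106 CPM in LP 3M PIC, 29.7 to 87.1 in LP 3M, 24.3 to 72.0 in LP PIC and 14.9 to 63.6 in LP, with wide overlap. Of these, Dcn rose by 4.61, 4.36 and 3.62 in LP 3M PIC, LP 3M and LP PIC (log2 fold change, adjusted p = 0.0069, 0.017 and 0.036, edgeR). Col1a1, at -0.84, -0.43 and -0.57, and Col1a2, at -0.55, -0.25 and -0.31 in the same order, did not pass the threshold. The part of these marker lists in the levels of the members was not tested.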

How the data were processed

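The files the authors deposited, 1 for each library, hold whole-number counts with no normalization. Build GRCm38 and the tools STAR 2.7.11b, HTSeq 0.13.5, FastQC 0.11.1 and DESeq2 1.44.0 come from the submitters' processing notes. Annotation and strand setting: not given in the sources used here. Per the labels' protocols, RNA was purified with NucleoSpin kits and made into stranded poly(A) libraries. Reads outside genes (5.94 to 8.58%) and ambiguous reads (1.14 to 1.90%) stayed out of totals and tests. CPM were computed here from plain gene totals. Levels per kb use the union of GENCODE M21 exons.

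The members and gene lists were chosen with earlier results of these data known, and some listed genes are not reported here. In edgeR 4.0.16 (R 4.3.3, limma 3.58.1), filterByExpr (minimum count 10, minimum total 15) left 12132 genes with 99.969% of counts. TMM factors, 1 mean per group over 20 libraries and the robust two-sided quasi-likelihood F-test were used (biological coefficient of variation 0.194), with Benjamini-Hochberg adjustment over all tested genes and a threshold of 0.05. Every adjusted p in the text comes from this fit, apart from those given for an alternative fit, such as the mouse block or left-out mice or libraries. SE is the absolute log2 change over the square root of F. The fit was tested on simulated data. DESeq2 1.42.0, other scalings and filters, a mouse block and left-out mice or libraries were the alternatives. Python 3.11.15, pandas 2.3.3, numpy 2.4.6 and matplotlib 3.10.9 served for the rest.

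Mouse numbers pair the groups, since the labels give the same animals in each. Deviations from group means correlated at a median of 0.399 (0.137 to 0.541) in the 30 pairs of libraries of 1 mouse and -0.152 in the 120 pairs of different mice. All 8 members are named. Of each other list the 3 genes with the smallest p in LP 3M PIC against LP, called genes against the list's majority and the interferon ligands are named, with the 8 genes most like the members and up to 3 markers per marker list. Other names were chosen after their values were seen, as the text says.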

Additional observations from a re-analysis of the deposited data

How the results depend on the processing

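Counts of members called were within 1.5 times the main count under each alternative in LP PIC against LP, in both LP 3M PIC against LP and against LP 3M, in the single formulations set against each other and in the interaction. In LP 3M against LP, the 1 called member (Gm12185) became 0 with no filter on low counts, with a filter of 10 CPM in 5 libraries, which removes it, with the mouse (replicate) block, without the LP library of mouse 2 and without the LP 3M library of mouse 5, and leaving out each mouse gave 0 to 1. In LP 3M PIC against LP PIC the 2 called members became 0 under the stricter filter, which removes both, and 1 to 2 without each mouse. The mouse block changed the call of no other member. The interaction called 1656 genes with the replicate block, against 1023 without it, and 182 to 1398 without each mouse (182, 291 and 242 without mouse 1, 2 and 4). Depth limits Tgtp1 and Gm12185, which had few counts.

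Some log2 changes near 0 turned sign; the cause was not tested. In LP 3M against LP, Irgm1 was -0.029 with plain library totals. Leaving out 1 mouse or library gave -0.024 to 0.18 for Irgm1, -0.091 to 0.32 for Tgtp2 and -0.55 to 0.81 for Tgtp1, which had 6 and 5 counts. In LP 3M PIC against LP PIC it gave -0.19 to 0.068 for Irgm2 and -0.31 to 0.050 for Ifi47, and in the interaction -0.32 to 0.035 for Igtp. 9930111J21Rik1 in LP PIC against LP was 0.00023 with just these groups fitted, 0.020 with the block and -0.075 to 0.084 without 1 mouse.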
